A study of Mus musculus with 6 samples.

Results

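The regions described here are 2 long stretches of mouse 28S rRNA in which no ribose-methylated nucleotide is listed. The first covers positions 450 to 1100 and lies within expansion segment 7 (ES7). The second covers positions 2635 to 3285, which are all positions between the last listed site before human position 3000 and the first listed site after human position 3500, and is called the ES27 stretch. Each has 651 members, 13.8% of the 4731 positions of 28S rRNA, so that the 2 stretches together hold 1302 of the 6758 rRNA positions measured. The names follow this rule, as the borders of expansion segments are not marked in the deposited tables. The ES27 stretch was cut between 2 listed sites, so the listed sites describe where the stretches lie but do not check their names. Of 66 listed 28S sites none lies inside a stretch, and the stretches fill most of the 2 widest gaps between neighbouring sites. The ES7 stretch lies in a gap of 731 nucleotides between A400 and G1131, and the ES27 stretch in a gap of 652 between G2634 and G3286, while the next widest gap is 425. They were set against the other 3283 unlisted 28S positions, leaving out those within 40 of an end of the molecule.

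Expansion segments are insertions that enlarge eukaryotic rRNA relative to the bacterial one. In mammals those of 28S rRNA are very rich in G and C, form long helices that reach out from the surface of the large subunit, and vary in length and sequence between species. The known snoRNA-guided 2'-O-methylations instead lie in the conserved core. In RiboMeth-seq, RNA is cleaved by alkali, fragments are sequenced, and a methylated ribose is seen as a gap in the fragment ends.

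RiboMeth-seq was applied to total RNA of 6 whole brains of KO mice. Of these, 3 came from adult Snord115 KO mice, in which the imprinted snoRNA array had been deleted from the expressed paternal allele by CRISPR-Cas9. The other 3 came from E16.5 embryos lacking both Snord115 and Snord116, a line that the study leaves for a later description and whose stage is E16.5 in the labels and adult in a figure legend. Both groups lack Snord115, a neuronal snoRNA, and no wild-type brain is among the samples. Age and loss of Snord116 change together between the groups and cannot be told apart. The tables hold rRNA positions only, so neither deletion nor the tissue could be checked against marker genes. Total read ends were between 9621368 and 20064865 per brain.

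The base content set the stretches apart from the rest of 28S rRNA. G and C made up 80.2% of the ES7 stretch and 80.6% of the ES27 stretch, against 61.6% of the other unlisted positions. A was the rarest base, with 7.22% in ES7 and 6.45% in ES27 against 20.2% elsewhere. The dinucleotide CG occurred 16.4 and 15.98 times per 100 positions in ES7 and ES27, against 10.1 elsewhere. Runs of 4 or more identical bases held 19.0% of ES7 and 21.7% of ES27 positions, against 8.41% elsewhere. Runs of 10 or more bases made only of G and C numbered 13 in ES7 and 20 in ES27, and 21 in the 3283 other positions.

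The sequences below are those on which the results turn, written 5' to 3' as in the deposited tables. The first pair are the longest runs of G and C only, where few fragments ended. The next 4 are windows of 50 positions, with runs of 8 or more G and C inside the window in capitals. Runs cut by a window border can therefore stay in lower case. The last 5 show the 4 positions with a fraction of 0.75 or more in each of the 6 brains and C771, the next below that limit, each in capitals with 12 bases on either side.
ES7 619 to 640: ggcgcgcgggcggggccggggg
ES27 2966 to 2988: cgggggggccggcggcggcggcg
ES7 551 to 600: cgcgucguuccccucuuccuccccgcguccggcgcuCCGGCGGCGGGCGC
ES7 601 to 650: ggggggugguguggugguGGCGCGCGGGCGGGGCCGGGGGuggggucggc
ES7 1051 to 1100: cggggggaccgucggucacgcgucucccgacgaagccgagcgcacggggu
ES27 2851 to 2900: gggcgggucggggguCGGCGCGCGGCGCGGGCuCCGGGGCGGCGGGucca
C663: gggggaccgcccCccggccggcgac
G687: ccggccgccgccGggcgcacuucca
G688: cggccgccgccgGgcgcacuuccac
C771: gcucggggggggCggcgcgucucag
G2853: ucccgucgggggGcgggucgggggu

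Fewer fragments ended in the stretches than elsewhere in 28S rRNA, in every brain. The ES7 stretch had a mean of 884, 1183 and 710 read ends per position in adult brains 1, 2 and 3, and 352, 479 and 694 in E16.5 brains 1, 2 and 3. The ES27 stretch had 604, 959 and 586 in the adult brains and 346, 678 and 785 in the E16.5 brains. The other unlisted 28S positions had 2433, 3083 and 1792 in the adult brains and 1588, 2086 and 3462 in the E16.5 brains. In each brain both stretches lay below the other positions. The log2 ratio of the stretch to the other positions was -1.80 ± 0.45 (SD, n = 6) for ES7, which is 3.48-fold lower, and -1.88 ± 0.27 (SD, n = 6) for ES27, which is 3.67-fold lower. Both were negative in 6 of 6 brains, with an adjusted p of 0.031 by an exact two-sided sign-flip permutation test over brains, the smallest that 6 brains allow, adjusted over 8 values (4 measures in 2 stretches). Within one library both values share the same depth, so the ratio does not depend on the library total.

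**Figure D1:**
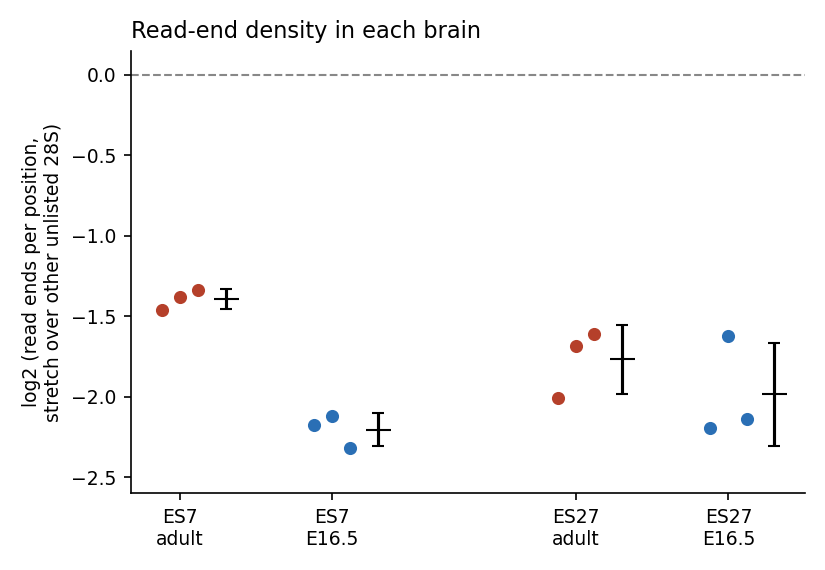
Log2 of read ends per position in the stretch over the other unlisted 28S positions (y axis), with 1 point per brain and the mean ± SD of 3 brains in black. All 12 points lie below 0, and the adult points of ES7 lie above its E16.5 points.

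Read-end density followed the local base content, both in the stretches and outside them. G and C made up 70% or more of the surrounding 41 bases at 93.2% of ES7 and 90.2% of ES27 positions, against 30.1% of the others. At 80 to 90% local G and C, density relative to the mean of the other positions was 0.230 in ES7 and 0.198 in ES27, against 0.311 at the other unlisted positions. At 90% or more it was 0.0885 in ES7 and 0.141 in ES27, against 0.175 at the other positions, of which only 27 fall in this class. At 70 to 80% it was 0.404 in ES7 and 0.246 in ES27, against 0.595. On the mean of 6 brains, density thus fell with local G and C above 70% in all 3 regions, and in each of these classes the stretches lay below the other positions. Brain by brain ES27 held the exceptions. In E16.5 brain 1 its log2 density was -2.52 at 70 to 80% and -2.49 at 80 to 90%. In adult brain 1 it lay just above the other positions at 90% or more, with -2.54 against -2.58. Some parts of the stretches went against this order. ES7 was low (0.341) at its 44 positions with 60 to 70% local G and C, where the other positions had 0.930. The 24 positions of ES27 with less than 60% had 1.21 on the mean of 6 brains, against 1.34 at the other positions in that class. Single brains spread widely there, with a log2 density from -0.36 to 0.73 in ES27, against 0.36 to 0.49 at the other positions. Against only those other positions with a local G and C of 70% or more, a comparison added after the data had been seen, the log2 ratio was -0.77 for ES7 and -0.85 for ES27. Both stretches thus stayed below the other positions in 6 of 6 brains, by less than in the full comparison, with an exact sign-flip p of 0.031.

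**Figure D2:**
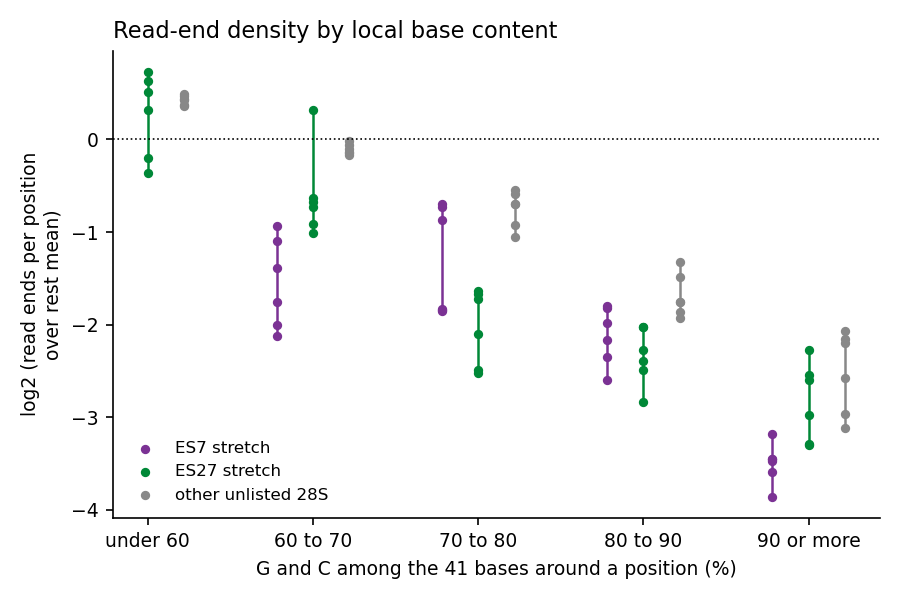
Log2 of mean read ends per position relative to the mean of the other unlisted 28S positions (y axis) by the G and C content of the 41 surrounding bases (x axis), with 1 point per brain and a line over the range of 6 brains. From 70% upward the mean of 6 brains falls with G and C content in all 3 regions, and ES7 has no position under 60%.

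Within the stretches, density was lowest in a few blocks. In bins of 10 nucleotides, 8 to 11 of the 65 bins of ES7 had less than 0.1 of the mean of the other positions in the adult brains, and 19 to 25 in the E16.5 brains. In ES27 it was 9 to 14 bins in the adult brains and 16 to 31 in the E16.5 brains. The poorest window of ES7 was 601 to 650, which contains the run of 22 G and C at 619 to 640. It had 529, 707 and 825 CPM in the adult brains and 462, 399.6 and 406 in the E16.5 brains, given here as CPM, edgeR's scaled counts with TMM library sizes. On the run itself 150.1, 266 and 193 read ends fell per position in the adult brains, and 89.7, 59.3 and 150.2 in the E16.5 brains. In ES27 the window with the lowest mean over 6 brains was 2751 to 2800, with 1202, 763 and 823 CPM in the adult brains and 922, 989 and 787 in the E16.5 brains. In the E16.5 brains alone the lowest mean was 747 CPM, at 2951 to 3000. The longest G and C run of ES27, at 2966 to 2988, had 424, 689 and 389 read ends per position in the adult brains, and 174, 134 and 276 in the E16.5 brains. Single runs of 1 base were not always poor. The 8 G at 763 to 770 of ES7, its longest run of 1 base, had 532, 687 and 495 read ends per position in the adult brains and 460, 838 and 697 in the E16.5 brains. Of the stretch positions, 551 of 651 ES7 and 592 of 651 ES27 positions had at least 100 expected read ends in all 6 brains, against 3269 of 3283 other positions. The remaining 100 and 59 positions were not scored below. The order of rich and poor positions recurred between brains. Across positions, which are not independent, log2 read ends of brains of the same age had a median Pearson correlation of 0.889 over the 651 positions of ES7 and 0.873 over those of ES27, against 0.783 over the other positions (6 pairs of brains each). Between brains of different age (9 pairs each) it was 0.805 in ES7 and 0.727 in ES27, against 0.741 over the other positions.

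**Figure D3:**
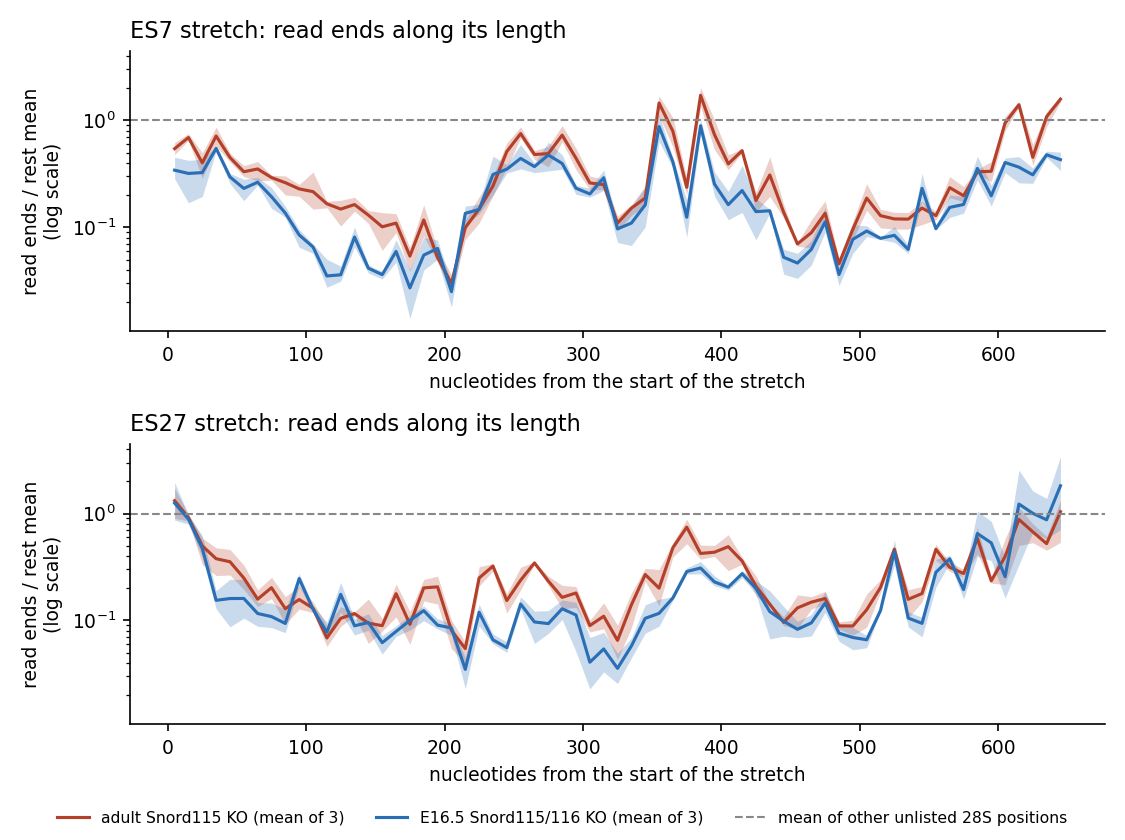
Read ends in bins of 10 nucleotides relative to the mean of the other unlisted 28S positions (log y axis) along each stretch (x axis, nucleotides from its start), as the mean of 3 brains with a band over their range, adult in red and E16.5 in blue. Both stretches lie below the dashed line over most of their length, and the ages separate in blocks, such as near 125 nucleotides into ES7.

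On the mean of 6 brains, the window with the most read ends was in each stretch the one with the least G and C. In ES7 this was 801 to 850, with 70% G and C, although in the adult brains alone the window 1051 to 1100, with 76%, had the higher mean (8796 against 7899 CPM). The window 801 to 850 had 6273, 8644 and 8782 CPM in the adult brains and 3814, 5453 and 4375 in the E16.5 brains. It holds the 3 positions with the highest share of read ends in ES7, C806, A808 and C836. In ES27 it was 3251 to 3300, with 58% G and C, which runs 15 positions past the end of the stretch and takes in the listed G3286. It had 4878, 7164 and 6268 CPM in the adult brains and 6021, 18135 and 7664 in the E16.5 brains, so that E16.5 brain 2 stood apart. Positions 3251 to 3285 held 11.2, 16.2 and 14.8% of the ES27 read ends in the adult brains, and 16.6, 37.2 and 22.3% in the E16.5 brains. In E16.5 brain 2 the highest of them was C3277, with 17370 read ends, where the other brains had 598 to 4153. By base, A had the highest density in both stretches and both ages. In ES7 it reached 1.48 of the stretch mean in the adult brains and 1.40 in the E16.5 brains, and in ES27 1.54 and 2.06, while A elsewhere had 1.14 and 1.23 of its own region's mean. G was the lowest base in ES7, with 0.856 of the stretch mean in the adult brains and 0.862 in the E16.5 brains. With the other positions weighted to the base content of the stretch, the log2 ratio was -1.73 for ES7 and -1.80 for ES27.

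The balance of 5' and 3' ends differed in the stretches as well. In ES27 the log2 of 5' over 3' read ends was -0.16, -0.13 and -0.14 in the adult brains and -0.12, -0.06 and -0.41 in the E16.5 brains. At the other positions it lay between -0.003 and 0.019 in the 6 brains. The difference was -0.18 ± 0.13 (SD, n = 6) for ES27, with an excess of 3' ends in 6 of 6 brains, and -0.04 ± 0.02 (SD, n = 6) for ES7, also in 6 of 6 brains, both with an adjusted p of 0.031 by the exact sign-flip test. The balance was lopsided in opposite ways near the 2 ends of the ES27 stretch, but not at its last 35 positions. At positions 2635 to 2650 the log2 of 5' over 3' ends was -1.85, -1.64 and -1.54 in the adult brains and -2.13, -3.02 and -3.54 in the E16.5 brains, while at 3201 to 3250 it was 0.71, 1.25 and 1.16 in the adult brains and 1.16, 3.25 and 1.63 in the E16.5 brains. E16.5 brain 3 at the first and E16.5 brain 2 at the second place were the most extreme. At 3251 to 3285 it was 0.19, -0.34 and 0.16 in the adult brains and 0.18, -0.74 and 0.01 in the E16.5 brains.

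The adult and E16.5 brains did not overlap in how far ES7 lay below the rest. These are whole brains, in which another make-up of cells and a change within cells cannot be told apart. The ES7 stretch took 6.33, 6.55 and 6.70% of all 28S read ends in the adult brains, and 3.96, 4.03 and 3.61% in the E16.5 brains, with no overlap. The log2 ratio to the other positions was -1.39 ± 0.06 (SD, n = 3) in the adult brains and -2.21 ± 0.10 (SD, n = 3) in the E16.5 brains. The difference of 0.81, or 1.76-fold more in the adult, had p = 0.1 by an exact two-sided permutation test, the smallest that 3 against 3 allow. It was 0.52 when the other positions were limited to a local G and C of 70% or more, and 0.41 with the median read ends per position, both with an exact p of 0.1. The ES27 stretch took 4.33, 5.31 and 5.53% in the adult brains, and 3.90, 5.70 and 4.08% in the E16.5 brains, so that the ages overlapped. Its log2 ratio was -1.77 ± 0.21 (SD, n = 3) in the adult brains and -1.99 ± 0.32 (SD, n = 3) in the E16.5 brains. The difference was 0.22, with an exact p of 0.3, and turned to -0.07 with the same limit on the other positions. With the median read ends per position it was 0.45, with an exact p of 0.1, close to the 0.41 of ES7 on that measure. Without the last 50 positions of the stretch, where E16.5 brain 2 stood apart, it was 0.46 with an exact p of 0.1. The limit and the shortened stretch were added after the data had been seen, and the difference between the stretches was not tested.

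Windows of 50 nucleotides showed where in the stretches the ages differed. Of 137 windows tiled over 28S and the other rRNAs, 12 passed the threshold in edgeR's quasi-likelihood test with Benjamini-Hochberg adjustment, a share of 8.76%, and 9, or 6.57%, were higher in the adult. Of the 13 windows of ES7, 4 were called, and of the 13 windows of ES27, 4 were called, all higher in the adult. The other 28S windows gave 1 call of 69, at 2451 to 2500, higher in the adult, and the windows of the other rRNAs gave 3 calls of 42, all lower in the adult. Among the 22 other 28S windows with 70% or more G and C, 1 was called. The median log2 change was 0.50 over the windows of ES7 and 0.20 over those of ES27, against -0.05 over the other 28S windows and 0.03 over all windows. It was 0.17 over the 22 other 28S windows with 70% or more G and C, of which 14 were above 0. At 80% or more G and C it was 0.26 in ES7, 0.20 in ES27 and 0.22 over 7 other 28S windows. By this median, ES27 thus did not stand apart from other windows rich in G and C. ES7 lay above those with 70% or more, at 0.50 against 0.17. At 80% or more it hardly did, at 0.26 against 0.22. Read ends of neighbouring windows come in part from the same fragments, so that adjoining calls are not independent of each other.

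In ES7 the largest change was at 551 to 600, with 1074, 1584 and 1220 CPM in the adult brains and 456, 468 and 426 in the E16.5 brains. The ages did not overlap, and the log2 change was 1.52 ± 0.20 (SE) with an adjusted p of 0.00127 (edgeR). Inside it lies the pyrimidine-rich run at 556 to 578, printed above as part of the window. Its read ends per position, not scaled for depth, were 320.2, 593 and 303 in the adult brains. They were 57.3, 90.7 and 110.0 in the E16.5 brains. The borders of the run were set by positions with too few expected read ends to be scored in every brain. The low values were those of the E16.5 brains, so this choice favoured an adult excess. The run is therefore no separate test of the ages. The window at the 3' end of the stretch, 1051 to 1100, had 9804, 8319 and 8264 CPM in the adult brains and 2796, 3779 and 3963 in the E16.5 brains, with a log2 change of 1.32 ± 0.21 and an adjusted p of 0.00209 (edgeR). Within its borders this window has no G and C run of 8 or more, unlike the first, although such a run crosses its start. The adjoining windows 801 to 850 and 851 to 900 changed by 0.80 and 0.96, with adjusted p of 0.0489 and 0.0116 (edgeR), without overlap between ages. At 651 to 700 the values were 1987, 1729 and 1661 CPM in the adult brains and 1720, 2268 and 1524 in the E16.5 brains, a log2 change of -0.04 ± 0.19 with overlapping ages.

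In ES27 the 4 called windows formed an unbroken block at 2851 to 3050. The largest change was at 2851 to 2900, with 1736, 1962 and 2253 CPM in the adult brains and 884, 797 and 759 in the E16.5 brains, a log2 change of 1.29 ± 0.18 (SE) and an adjusted p of 0.00127 (edgeR). The next 3 windows changed by 0.77, 1.06 and 0.90, with adjusted p of 0.0481, 0.00352 and 0.0105 (edgeR), and their ages did not overlap. The block contains the longest G and C run of the stretch. Outside it the windows of ES27 had log2 changes between -0.80 and 0.37 and none was called. The lowest, -0.80 ± 0.37 at 3251 to 3300, had an adjusted p of 0.30 (edgeR), with E16.5 brain 2 far above the other brains. Over the 2 stretches 12 of 26 windows had no overlap between ages (7 in ES7 and 5 in ES27), against 24.1% of all windows. Without single brains, the number of called windows lay between 2 and 6 in ES7 and between 2 and 4 in ES27. It fell to 2 in ES7 without E16.5 brain 3 and to 2 in ES27 without adult brain 3, while the direction of the 8 called windows held each time.

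**Figure D4:**
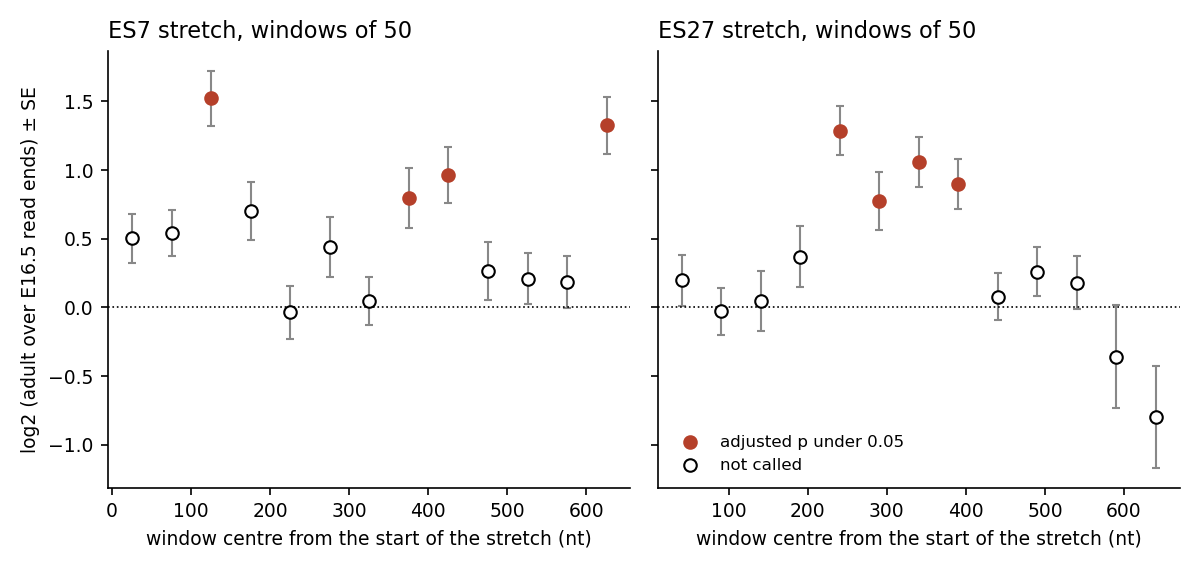
Log2 change of read ends, adult over E16.5, with its SE (y axis) in windows of 50 nucleotides by the distance of their centre from the start of the stretch (x axis); filled points passed an adjusted p of 0.05. Called windows are all above 0, at 3 places in ES7, of which 1 holds an adjoining pair, and side by side in ES27.

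The deposited fraction is 1 minus the read ends at a position over those expected from its 6 neighbours on each side, set to 0 where negative, so that an uneven profile alone can raise it. It was 0 at 41.9 ± 3.1% of ES7 and 42.1 ± 0.8% of ES27 positions, against 44.4 ± 1.7% of the other unlisted positions (SD, n = 6). Values of 0.5 or more occurred at 9.44, 8.71 and 9.80% of ES7 positions in the adult brains and at 9.98, 14.3 and 11.98% in the E16.5 brains. For ES27 it was 9.29% in each of the adult brains, and 9.63, 14.02 and 12.5% in the E16.5 brains. At the other positions it was 7.83, 7.49 and 7.01% in the adult brains and 7.37, 11.8 and 8.66% in the E16.5 brains. Each stretch was above the other positions in 6 of 6 brains, by 2.35 ± 0.79 percentage points in ES7 and 2.31 ± 0.82 in ES27 (SD, n = 6), with an adjusted p of 0.031 by the exact sign-flip test. The profile itself was more uneven. The median size of the log2 ratio of observed to expected read ends was higher by 0.029 ± 0.017 in ES7 and by 0.050 ± 0.015 in ES27 (SD, n = 6), in 6 of 6 brains, with the same p. Depth differed with the region. Of the scored positions, 97.8% in ES7 and 93.9% in ES27 had less than 1000 expected read ends in at least 1 brain, against 46.1% elsewhere. Against other positions of that depth only, a comparison added after the data had been seen, the excess of high fractions was 1.36 percentage points in ES7 and 1.32 in ES27, each with an exact sign-flip p of 0.0625. In the same comparison the unevenness was higher by 0.0201 in ES7, with an exact sign-flip p of 0.0625, and by 0.0410 in ES27, with an exact sign-flip p of 0.031.

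Few positions kept a high fraction in every brain. Values of 0.75 or more in each of the 6 brains occurred at 3 of 551 scored positions in ES7 and at 1 of 592 in ES27. Over all unlisted rRNA positions it was 0.186%, or 12 of 6438, of which 5 lie within 40 nucleotides of an end of 28S rRNA and 3 in the shortest rRNA, and none among the other 3269 scored 28S positions. At 0.5 or more in all 6 brains there were 8 positions in ES7, 1.45%, and 7 in ES27, 1.18%, against 1.30% of all unlisted rRNA positions, so that both shares were near the background. The 15 positions were A in 1 case, C in 4 cases and G in 10, with no U, a base that made up 12.6% of ES7 and 12.9% of ES27. G and C made up 79.1% of the scored positions of ES7 and 80.2% of those of ES27. Among the other 28S positions 16 of the 38 at 0.5 or more in all 6 brains were U. With so few positions the difference in bases was not tested. The lowest of the 6 fractions was 0.757 at G2853, the last position inside the limit of 0.75, and 0.691 at C771, the first outside it. Among the other 28S positions the highest was 0.716, at U4095.

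C663 of ES7 had fractions of 0.939, 0.933 and 0.906 in the adult brains and 0.912, 0.942 and 0.810 in the E16.5 brains. These rest on 15, 18 and 11 read ends where 245, 270 and 117 were expected in the adult brains, and on 17, 14 and 61 where 194, 243 and 322 were expected in the E16.5 brains. The position is the fourth C of a run of 6. G687 had fractions of 0.918, 0.893 and 0.801 in the adult brains and 0.946, 0.911 and 0.888 in the E16.5 brains. Its neighbour G688 had 0.911, 0.828 and 0.839 in the adult brains and 0.932, 0.786 and 0.871 in the E16.5 brains. Both are the first bases of a run of 3 G. None of the 3 was called between ages, with adjusted p of 0.55 or more (edgeR).

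These ES7 positions rest on 5' ends. With 5' ends alone the fraction at G687 was 0.90 or more in each of the 6 brains, while with 3' ends alone it was 0.10, 0.54 and 0.00 in the adult brains and 0.33, 0.05 and 0.44 in the E16.5 brains, where 24 to 71 3' ends were expected. At C663 only 6 to 21 3' ends were expected, and with them alone the fraction lay between 0.22 and 0.91. At G688 it lay between 0 and 0.82. Of the 15 positions at 0.5 or more, 11 reached 0.5 in all 6 brains on 5' ends alone, 6 on 3' ends alone, and 2 on each kind of end separately.

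The 2 positions at 0.5 or more in all 6 brains on each kind of end were C771 and G2853, which were picked out after their values had been seen. G912 and G3154 missed this limit narrowly, with lowest values of 0.47 and 0.46 on 5' ends alone and 0.60 each on 3' ends alone. C771, which follows the run of 8 G in ES7, had fractions of 0.728, 0.751 and 0.767 in the adult brains and 0.768, 0.691 and 0.776 in the E16.5 brains, with a narrow spread. Its lowest value was 0.67 with 5' ends alone and 0.70 with 3' ends alone. The 3' ends were few, with 12, 6 and 6 seen in the E16.5 brains where 40, 27 and 61 were expected. G2853, the last of a run of 6 G in ES27, had 0.853, 0.757 and 0.814 in the adult brains and 0.842, 0.904 and 0.913 in the E16.5 brains, from 37, 104 and 59 read ends in the adult brains and 22, 14 and 15 in the E16.5 brains. With 5' ends alone its fraction was 0.59 or more in each brain, and with 3' ends alone 0.78 or more. Its log2 change was 0.77, with an adjusted p of 0.40 (edgeR). The base after it, C2854, had 0.751, 0.597 and 0.442 in the adult brains and 0.785, 0.827 and 0.858 in the E16.5 brains, and G3167, at the start of another run of 6 G, had 0.892, 0.593 and 0.664 in the adult brains and 0.930, 0.851 and 0.815 in the E16.5 brains. The remaining 9 positions were G667, A802, G912 and G987 of ES7 and G2788, G2810, C2885, G3154 and C3230 of ES27, with fractions between 0.505 and 0.875 in single brains.

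The listed sites that flank the stretches give the scale of a methylated position. A400 had fractions between 0.976 and 0.989 in the 6 brains, with 24 to 54 read ends, and G2634 between 0.866 and 0.985. G1131 had 0.958, 0.971 and 0.948 in the adult brains and 0.878, 0.912 and 0.894 in the E16.5 brains. G3286, which adjoins the last ES27 position, had 0.974, 0.966 and 0.944 in the adult brains and 0.809, 0.703 and 0.819 in the E16.5 brains. G3286 was called between ages, with a log2 change of -2.52 in read ends over those expected (adjusted p of 0.0109, edgeR). The 4 sites had mean fractions of 0.809 or more both on 5' ends alone and on 3' ends alone, while C663, G687 and G688 had means of 0.50, 0.25 and 0.40 on 3' ends alone. Single brains went lower, as G3286 had 0.768, 0.530 and 0.665 on 5' ends alone in the E16.5 brains.

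**Figure D5:**
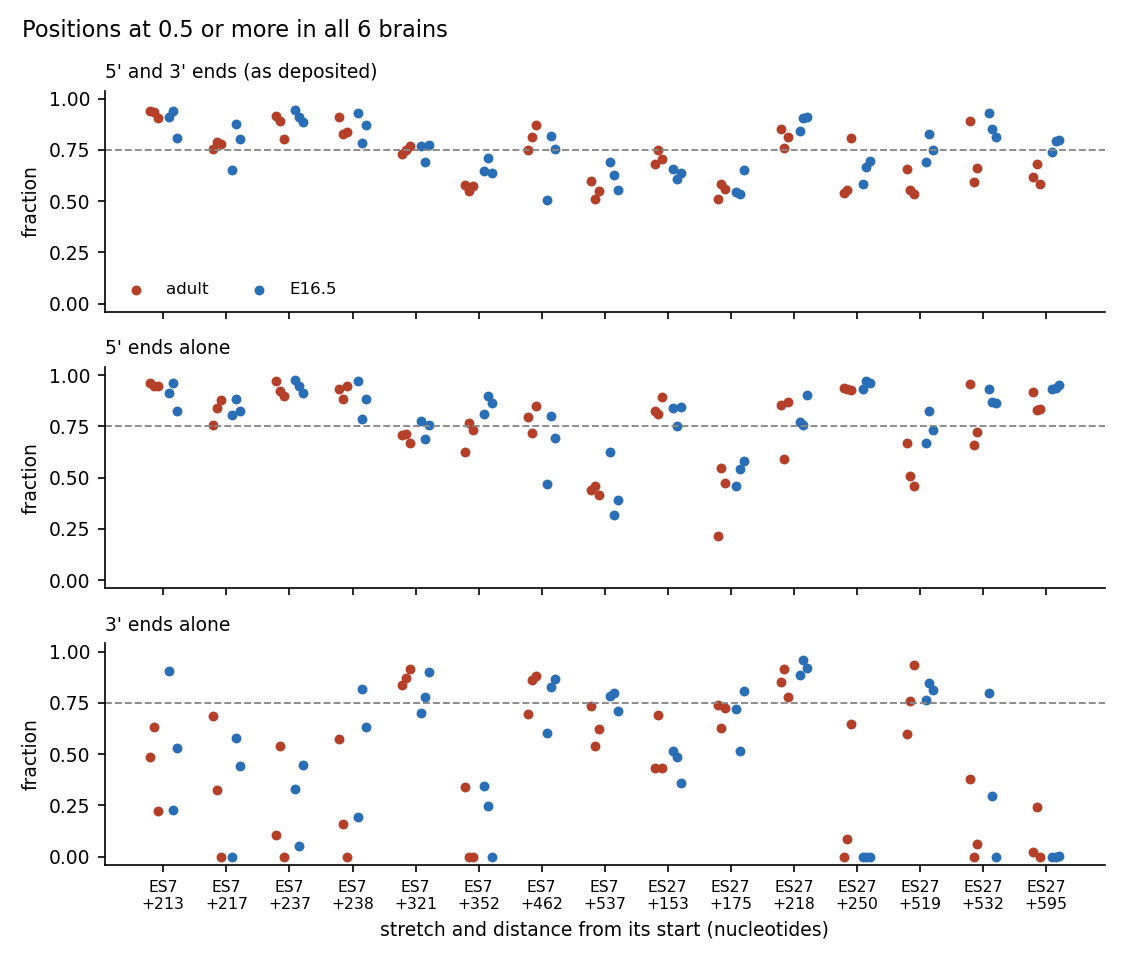
Fraction (y axis) at the 15 stretch positions of 0.5 or more in all 6 brains (x axis, stretch and nucleotides from its start), with 1 point per brain, adult in red on the left and E16.5 in blue on the right, from both kinds of ends, from 5' ends alone and from 3' ends alone. The dashed line is 0.75; with 3' ends alone the ES7 positions at +213, +217, +237 and +238 spread widely, and ES27 +218 (G2853) stays above the line.

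Changes of single positions between ages were about as rare in the stretches as over all rRNA. Of 6546 rRNA positions tested with edgeR, 36 were called, or 0.550%, and 973 had an unadjusted p below 0.05. ES7 had 4 calls of 551 and ES27 4 calls of 592. In all 8 the ages did not overlap in the unprotected share, the read ends over those expected. The calls were made on this same share, so the lack of overlap adds no support to them. At C1000 of ES7 the fraction was 0.662, 0.370 and 0.505 in the adult brains and 0.879, 0.939 and 0.895 in the E16.5 brains, a log2 change of 2.38 in the unprotected share (adjusted p of 0.0210, edgeR). At G3137 of ES27 it was 0.566, 0.108 and 0.482 in the adult brains and 0.885, 0.804 and 0.856 in the E16.5 brains, with a log2 change of 2.01 and an adjusted p of 0.0451 (edgeR). G2863 also had the lower fraction in the adult, with 0.131, 0 and 0 in the adult brains against 0.639, 0.746 and 0.559 in the E16.5 brains. At the other 5 called positions, C551, G642 and C1069 of ES7 and C2807 and C3228 of ES27, the fraction was 0 in all E16.5 brains, and at G642 also in adult brain 1. The largest change among them was at C3228, with fractions of 0.444, 0.603 and 0.545 in the adult brains and a log2 change of -2.001 (adjusted p of 0.0136, edgeR). With 3' ends alone, for which 3 of the 8 could be tested, edgeR called none in either stretch, while 29 of 335 ES7 and 34 of 258 ES27 positions had an unadjusted p below 0.05, against 10.4% of all rRNA positions. Leaving out adult brain 2 or adult brain 3 also left no edgeR call in either stretch. Then 55 to 67 positions per stretch had an unadjusted p below 0.05 (edgeR). The share over all rRNA was 8.94% without adult brain 2 and 9.51% without adult brain 3. Of the 8 called positions, 2, 1 and 1 stayed called without E16.5 brain 1, 2 and 3, and all 8 without adult brain 1. Over all rRNA, calls numbered 19 of 6579, 18 of 6582 and 15 of 6546 without these E16.5 brains. Without adult brain 1 they numbered 105 of 6546. DESeq2, with all brains, called 29 positions in ES7 and 22 in ES27, against 242 of 6546, or 3.7%, over all rRNA.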

How the data were processed

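RiboMeth-seq had been performed on 3 adult Snord115 KO and 3 E16.5 Snord115/116 KO whole brains. The methods give alkaline degradation, a size range of 20–40 nt and Ion Proton sequencing, and reads were mapped to curated mouse rRNA sequences (Bowtie2 2.3.4.1 and cutadapt 2.0 in the submitters' processing notes). For every rRNA position the authors deposited unnormalized counts of 5' ends and of 3' ends, and the fraction computed from them, with weights of 1.0 to 0.5 on the 6 neighbours. The deposited list of sites gives other values, namely mouse and human positions, of which only these were used. The authors' means, SDs and WT and KO scores were not used, nor were the 6 values of 1 unnamed column of the adult table. No genome build applies to rRNA positions.

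Recomputed and deposited fractions differed by less than 1e-05 at each of the 1302 stretch positions in every brain. No pair of brains shared its counts. Positions were scored with at least 100 expected read ends in all 6 brains. Stretches were compared with the other positions per brain by exact sign-flip tests, and ages by exact permutation tests. Positions (offset, log of the expected read ends) and windows of 50 (TMM library sizes, assigned to a stretch by their centre) were tested with edgeR 4.0.16 over all rRNA, with an adjusted p threshold of 0.05; DESeq2 1.42.0 was an alternative. The tests were checked on simulated data. Counting intervals are left out, since the protocol used no molecular identifiers, and p-values measure the spread between these brains. Named positions were those at 0.75 or more in all 6 brains, the 3 highest mean fractions and shares of read ends per stretch, called positions without overlap of ages, the lowest, highest and most changed windows, the longest runs and the flanking sites. Members, lists and tests were chosen with earlier results of these data known. Other settings were 5' or 3' ends alone, other neighbours and weights, other minimums of expected read ends, other window sizes and library scaling, the median, base weighting, another set of other positions, each brain left out and the replicate number as a block. Python 3.11.15, numpy 2.4.6, pandas 2.3.3, matplotlib 3.10.9 and R 4.3.3 were used.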

Additional observations from a re-analysis of the deposited data

How the results depend on the processing

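The lower density of both stretches kept its direction in 6 of 6 brains and its p under every setting with all brains. With 5 brains no exact sign-flip test can go below p = 0.0625, so leaving out a brain ended every call of this kind. Its log2 ratio then lay between -1.89 and -1.70 for ES7 and between -1.93 and -1.81 for ES27. The unevenness lay between 0.0231 and 0.0309 and between 0.0463 and 0.0544, the excess of fractions of 0.5 or more between 1.97 and 2.58 and between 2.01 and 2.69 percentage points, and the log2 of 5' over 3' ends between -0.0419 and -0.0321 and between -0.199 and -0.127, for ES7 and ES27.

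The unevenness of ES7 lost its call with 2 neighbours (0.0141, p = 0.0625 by the exact sign-flip test), 3' ends alone (0.0394, exact p = 0.09375), at least 1000 expected read ends (0.0195, exact p = 0.78125, 12 positions) and other positions of under 1000 expected read ends (0.0201). That of ES27 lost it with 3' ends alone (0.031) and at least 1000 expected (0.0865, 36 positions). The excess of fractions of 0.5 or more lost it with at least 1000 expected (3.60 in ES7, 2.22 in ES27), with other positions of under 1000 expected (1.36 and 1.32), and in ES27 with 3' ends alone (2.40) or a limit of 0.75 (0.697). The median 5' over 3' ratio of ES7 was -0.0497, with an exact p of 0.3125. These were differences in the same direction as with the main settings.

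The difference between ages in ES7 lay between 0.75 and 0.85 without single brains, and that of ES27 between 0.11 and 0.40. With other positions of 70% or more local G and C it was 0.52 in ES7, and with median read ends 0.41 in ES7 and 0.45 in ES27, all with an exact p of 0.1. Only ES27 changed its sign, to -0.0731, with that limit on local G and C, a setting chosen after the data had been seen.

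Called windows numbered 22 of 137 with DESeq2 (7 of 13 in ES7) and 23 of 272 with windows of 25 (9 of 26 in ES7, 7 of 26 in ES27). They numbered 7 of 69 with windows of 100, and 8 to 22 of 137 without single brains, the most without E16.5 brain 2. With 5' ends alone or 3' ends alone ES27 had 2 and 2 of 13, against 8 and 9 of 137 over all rRNA. The 8 called windows were all still called with DESeq2 and with total read ends in place of TMM, which put the median log2 change of all windows at 0.14 against 0.03, and 5 with either kind of end alone. Called positions numbered 242 of 6546 with DESeq2 (29 of 551 in ES7, 22 of 592 in ES27). With 5' ends alone they numbered 180 of 5675 (18 of 336 and 8 of 283). With 3' ends alone it was 4 of 5620 (0 of 335 and 0 of 258). With at least 1000 expected it was 17 of 3204 (0 of 12 and 0 of 36), so that few stretch positions could be tested. Without single brains 10 to 105 were called (0 to 10 in each stretch). Without adult brain 1 it was 10 in each stretch and 105 of 6546 over all rRNA. Equal weights gave 2 of 593 in ES27, against 30 of 6546 over all rRNA. The cause of these differences was not tested.

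At 0.75 or more in all brains, 5' ends alone gave 7 of 336 scored positions in ES7, 6 of 283 in ES27 and 18 of 3051 elsewhere in 28S rRNA. With 3' ends alone it was 10 of 2998 elsewhere. With at least 1000 expected read ends it was 0 of 12 in ES7 and 0 of 36 in ES27. At a limit of 0.5 there were 8 of 551 in ES7, 7 of 592 in ES27 and 38 of 3269 elsewhere. Without single brains, at 0.75, there were 3 to 4, 1 to 1 and 0 to 1 in the same order.

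With the replicate number as a block, 7 of 551 positions were called in ES7 and 4 of 592 in ES27, against 50 of 6546 over all rRNA. Of all windows 13 of 137 were called, and in the stretches the same 8 as without the block. The differences between ages were 0.81 in ES7 and 0.22 in ES27. They had exact sign-flip p of 0.25 and 0.5 over 3 pairs, which allow no p below 0.25. Same-numbered brains had correlations of deviations of 0.284, 0.201 and 0.0638. Each brain correlated best with its own number, a hint from the data only, and the numbers were not treated as pairs. Low counts limit single positions of the stretches, at most of which fewer than 1000 read ends were expected in some brain.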
